A study of Homo sapiens with 6 samples.

Results

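The genes described here are the WNT ligands, their Frizzled and LRP receptors, the secreted inhibitors of the SFRP, DKK and WIF families, the intracellular genes AXIN1, AXIN2, CTNNB1 and LEF1, and SHISA2. They were chosen by symbol among the probe sets that the platform annotation pairs with 1 gene, and each gene was represented by the probe set with the highest mean over the 6 arrays. The choice gave 42 genes of 19775 measured: 17 ligands, 11 receptors, 9 secreted inhibitors, 4 intracellular genes and SHISA2. FZD8, TCF7, WNT3 and WNT3A were not analysed here. SHISA2 was put in the set with its large fall in these data already known, so its own difference is a description of why it is here and supports nothing further.

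The cells were SUM149, a single human cell line of inflammatory breast cancer, grown in Ham's F-12 medium with serum, insulin and hydrocortisone. In the siTIG1 group, 3 arrays measured cells transfected with an ON-TARGET Plus siRNA pool against TIG1 (current symbol RARRES1), and in the siControl group 3 arrays measured cells given the siGENOME non-targeting pool. Both pools were used at 200 nmol/L with oligofectamine, so the groups differed in target and also in siRNA product line. The labels do not give the time after transfection, nor whether the arrays of a group came from separate cultures. The p-values thus cover only how these arrays varied, and that variation may be technical.

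WNT proteins are secreted, lipid-modified ligands that bind Frizzled receptors. In the canonical branch Frizzled acts with LRP5 or LRP6, the destruction complex built on the axin scaffolds is held in check, and beta-catenin (CTNNB1) enters the nucleus to work with the DNA-binding factors of the TCF/LEF family. In other branches WNT5A and WNT11 act through Frizzled with ROR or RYK co-receptors on cell polarity and movement, and often counter the canonical branch. SFRP and WIF1 proteins bind WNT ligands outside the cell, DKK1 binds LRP5 and LRP6, and Shisa proteins, known best from Xenopus, hold Frizzled and FGF receptors in the endoplasmic reticulum so that fewer reach the surface.

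Start regions are shown for SHISA2, FZD5 and WNT5A, which passed the test, and for DKK1, which did not pass. They let the letters bound by the pathway's own factor be looked for beside the array results. WNT11 also passed and is not shown. RefSeq's table for GRCh38.p14 held a window of 250 bases before to 50 bases after the start for 28 of the 42 genes. All windows are written 5′ to 3′ on the gene's strand. Capitals mark, on either strand, the letters CTTTGA or CTTTGT (the core bound by TCF/LEF factors), GGGCGG (a GC box) and TATAA, and neighbouring GC boxes may share a base.
SHISA2, chr13:26051967-26052266, minus strand: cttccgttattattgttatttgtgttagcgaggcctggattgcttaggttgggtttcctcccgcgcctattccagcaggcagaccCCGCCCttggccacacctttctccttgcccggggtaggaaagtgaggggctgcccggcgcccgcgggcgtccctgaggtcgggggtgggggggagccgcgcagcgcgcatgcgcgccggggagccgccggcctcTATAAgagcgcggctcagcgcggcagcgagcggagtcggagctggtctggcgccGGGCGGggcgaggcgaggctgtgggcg
FZD5, chr2:207769857-207770156, minus strand: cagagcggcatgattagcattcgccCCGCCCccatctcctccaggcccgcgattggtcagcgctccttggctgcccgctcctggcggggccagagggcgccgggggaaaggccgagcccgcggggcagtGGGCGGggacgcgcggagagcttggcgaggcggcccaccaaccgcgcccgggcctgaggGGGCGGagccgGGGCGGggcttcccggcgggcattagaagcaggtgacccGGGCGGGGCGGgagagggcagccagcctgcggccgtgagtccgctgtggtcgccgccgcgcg
WNT5A, chr3:55487257-55487556, minus strand: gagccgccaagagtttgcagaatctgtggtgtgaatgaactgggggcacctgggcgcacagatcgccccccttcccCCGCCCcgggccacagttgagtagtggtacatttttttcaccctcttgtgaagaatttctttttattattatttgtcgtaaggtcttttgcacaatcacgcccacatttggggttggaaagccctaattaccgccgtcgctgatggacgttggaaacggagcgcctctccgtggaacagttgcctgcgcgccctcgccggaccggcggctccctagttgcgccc
DKK1, chr10:52314031-52314330, plus strand: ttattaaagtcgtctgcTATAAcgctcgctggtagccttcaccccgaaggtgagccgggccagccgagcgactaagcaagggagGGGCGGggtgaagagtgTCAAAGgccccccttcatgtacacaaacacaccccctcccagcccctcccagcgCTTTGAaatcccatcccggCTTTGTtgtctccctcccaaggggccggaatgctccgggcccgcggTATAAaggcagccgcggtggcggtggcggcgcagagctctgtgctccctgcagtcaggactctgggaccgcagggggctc
The SHISA2 window held 2 GC boxes and 1 TATAA, the FZD5 window 6 GC boxes, and the first of 2 WNT5A windows 1 GC box, and none of these held the TCF/LEF core. The DKK1 window held CTTTGA at 2 places, CTTTGT at 1 place and TATAA at 2 places. CTTTGA or CTTTGT was present in 26.2% of all 35116 windows in the table and in 3 of the 31 windows of the genes described here, those of DKK1, FZD1 and WNT8B. A GC box was present in 45.0% of all windows and in 26 of these 31. A match is a description of the letters only.

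Values are log2 signals as deposited, differences are siTIG1 minus siControl, and adjusted p-values come from limma over all 19775 genes with a threshold of 0.05. Of the 42 genes 2 rose, WNT11 and WNT5A, and 2 fell, SHISA2 and FZD5, while 38 did not pass. Across all genes 3.15% were called higher and 4.17% lower (7.32% in all), so 4 of 42 is close to the background. The median difference of the 42 genes was 0.01, against 0.02 for all genes. All 3 siTIG1 arrays lay above all 3 siControl arrays for 4 of the 42 genes and below them for 9, which happened for 16.6% and 15.4% of all genes (32.0% in all).

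**Figure D1:**
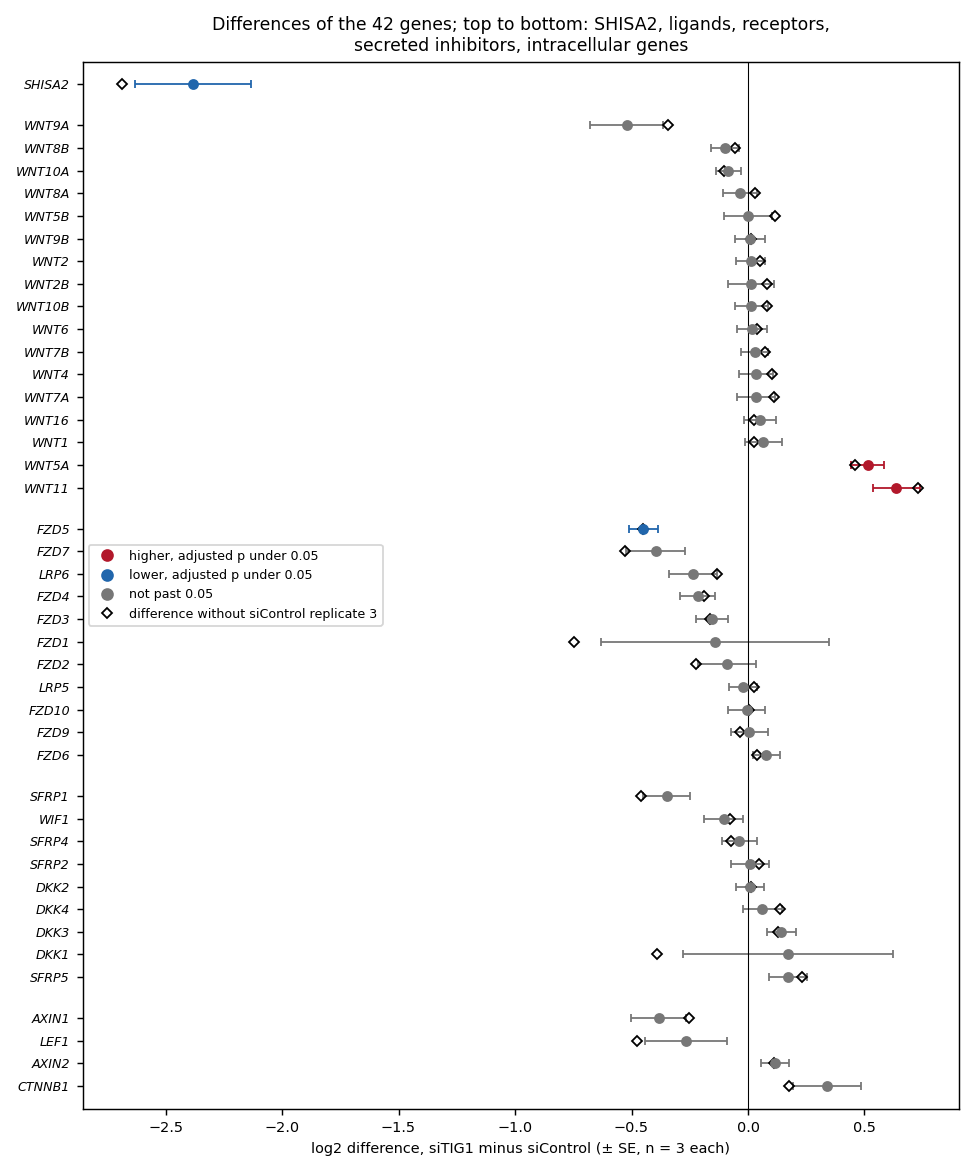
Log2 difference, siTIG1 minus siControl, of each of the 42 genes (circles with SE, n = 3 each), grouped by role, with open diamonds for the difference without siControl replicate 3. SHISA2 lies at -2.38, while WNT11 (0.64), WNT5A (0.51) and FZD5 (-0.45) are the other coloured points.

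The siControl replicate 3 array stood apart from the other arrays, as it correlated with them at 0.982 to 0.985 across probe sets, whereas all other pairs correlated at 0.992 to 0.999. It was the array farthest from the 6-array mean for 16 of the 42 genes, against 2 to 7 for each other array. TIG1 itself read 12.69, 11.95 and 11.87 on the siTIG1 arrays, against 12.65, 12.61 and 13.74 on the siControl arrays, on its brightest probe set (difference -0.83 ± 0.36 SE, limma adjusted p = 0.25). The array labelled siTIG1 replicate 1 was thus not below siControl replicates 1 and 2 for the targeted gene on that probe set. On the other probe sets of TIG1 the differences were -1.28 and -1.24, and the groups did not overlap. Neither difference passed (limma adjusted p = 0.20 and 0.23). Without siControl replicate 3 they were -0.75 and -0.68 (limma adjusted p = 0.024 and 0.043). The brightest probe set of TIG1 then gave -0.46, with groups that still overlapped, and did not pass (limma adjusted p = 0.12). RNA quality was read from ACTB, as the 3′ signal minus the 5′ signal, a measure that is larger in degraded RNA. It was 2.14 to 2.34 on the siTIG1 arrays and 2.62 to 3.21 on the siControl arrays (exact permutation p = 0.1, 2-sided, the smallest that 3 against 3 arrays allow), and its part in the differences below was not tested. The same measure for GAPDH was 0.46 to 0.47 on the siTIG1 arrays and 0.46 to 0.57 on the siControl arrays, and the groups overlapped (exact permutation p = 0.2, 2-sided). siControl replicate 3 had the highest value for both genes. It was 3.21 for ACTB, against 2.73 and 2.62 on the other controls, and 0.57 for GAPDH, against 0.48 and 0.46. Whether this bears on the distance of that array from the others was not tested. All 5 measured epithelial markers (EPCAM, CDH1, KRT5, KRT8 and KRT18) read between 11.71 and 14.46 on every array. None of the 10 measured markers of leukocytes, endothelium and fibroblasts passed the test. That test compares the groups and does not show that these genes were silent. Their signals ran from 5.64 (CDH5) to 10.44 (COL1A1).

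**Figure D2:**
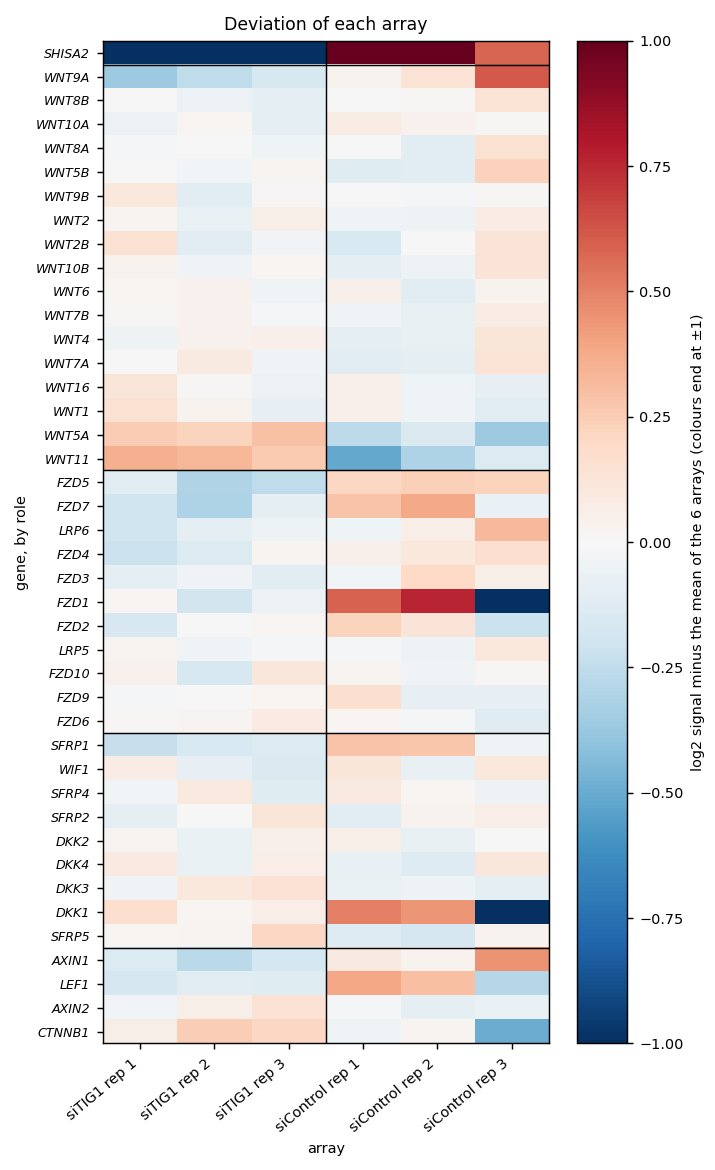
Log2 signal of each gene on each array minus its mean over the 6 arrays, genes grouped by role and siTIG1 arrays on the left. Colours end at ±1, and the siControl replicate 3 column departs from the other controls for FZD1 and DKK1 in particular.

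SHISA2, the Shisa family member measured here by a single probe set, read 6.77, 6.82 and 6.98 on the siTIG1 arrays, against 9.53, 9.56 and 8.63 on the siControl arrays. All siTIG1 arrays were low and the groups did not overlap, with siControl replicate 3 the lowest control. The means were 6.86 ± 0.11 in the siTIG1 group and 9.24 ± 0.53 in the siControl group (SD, n = 3 each), and the difference of -2.38 ± 0.25 (SE) had a 95% interval of -2.99 to -1.77 and a limma adjusted p of 0.0059. Signals of this size in the siTIG1 group cannot be told from background: 95% of the 82 olfactory receptor genes, a class that epithelial cells are not known to transcribe, averaged below 8.78, so the fold of 5.21 may be too small. Without siControl replicate 3 the difference was -2.69 (limma adjusted p = 5.3e-08). With 1 of the other arrays left out the adjusted p lay between 0.029 and 0.05004, and the last of these, without siTIG1 replicate 2, was just past the threshold.

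None of the 7 other Shisa genes (SHISA3 to SHISA9) passed with all arrays, and none had an unadjusted p under 0.05. Their differences ran from -0.07 to 0.10. SHISA4 read 8.05, 7.88 and 7.94 on the siTIG1 arrays and 7.61, 7.61 and 8.35 on the siControl arrays, and it passed as higher without siControl replicate 3 (0.35, limma adjusted p = 0.0026), on signals within the range of the olfactory receptor genes.

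Among the 17 ligands, WNT5A and WNT11 rose and none fell. WNT5A, a ligand of the non-canonical branch, read 12.09, 12.06 and 12.13 on the siTIG1 arrays, against 11.57, 11.69 and 11.47 on the siControl arrays. Every siTIG1 array was above every control, and the difference was 0.51 ± 0.07 (SE), a fold of 1.43 (limma adjusted p = 0.012). Its second probe set gave 10.12, 10.09 and 10.05 on the siTIG1 arrays and 9.69, 9.68 and 9.50 on the siControl arrays. The groups were 0.46 ± 0.07 (SE) apart there, with a limma adjusted p of 0.017 over all probe sets except the platform's own control probe sets. Both probe sets of WNT5A therefore passed with the same sign and nearly the same size.

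WNT11, which like WNT5A is known for acting outside the beta-catenin branch, read 9.23, 9.21 and 9.13 on the siTIG1 arrays. On the siControl arrays it read 8.36, 8.56 and 8.74. The groups did not overlap, and siControl replicate 3 was the control nearest to the siTIG1 arrays. The difference was 0.64 ± 0.10 (SE), a fold of 1.55 (limma adjusted p = 0.018), on a single probe set. The siControl mean of 8.55 lay within the range of the olfactory receptor genes (limit 8.78), so the control signal may be background. Without siControl replicate 3 the differences of WNT11 and WNT5A were 0.73 (limma adjusted p = 7.2e-05) and 0.46 (limma adjusted p = 0.00034). With 1 other array left out, the limma adjusted p lay between 0.041 and 0.099 for WNT11 and between 0.026 and 0.077 for WNT5A, and each call was kept in 1 of those 5 cases.

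WNT9A was the only other ligand whose groups did not overlap, at 7.52, 7.63 and 7.72 on the siTIG1 arrays and 7.92, 8.02 and 8.50 on the siControl arrays. Its difference of -0.52 ± 0.16 (SE) did not pass (limma adjusted p = 0.11), and siControl replicate 3 was its highest array. Without that array it was lower by a smaller amount that passed (-0.34, limma adjusted p = 0.0051), but its other probe set gave 0.04 with all arrays. Its signals lay within the range of the olfactory receptor genes and may be background. The remaining 14 ligands differed by -0.10 (WNT8B) to 0.07 (WNT1), and their 95% intervals stayed within -0.25 and 0.26. Of these 14, only WNT6, WNT7B and WNT10B averaged above the level that bounds 95% of the olfactory receptor genes, so for the other 11 the signal may be background and a change could go unseen. WNT6 read 10.00, 10.02 and 9.94 on the siTIG1 arrays and 10.03, 9.87 and 10.02 on the siControl arrays.

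**Figure D3:**
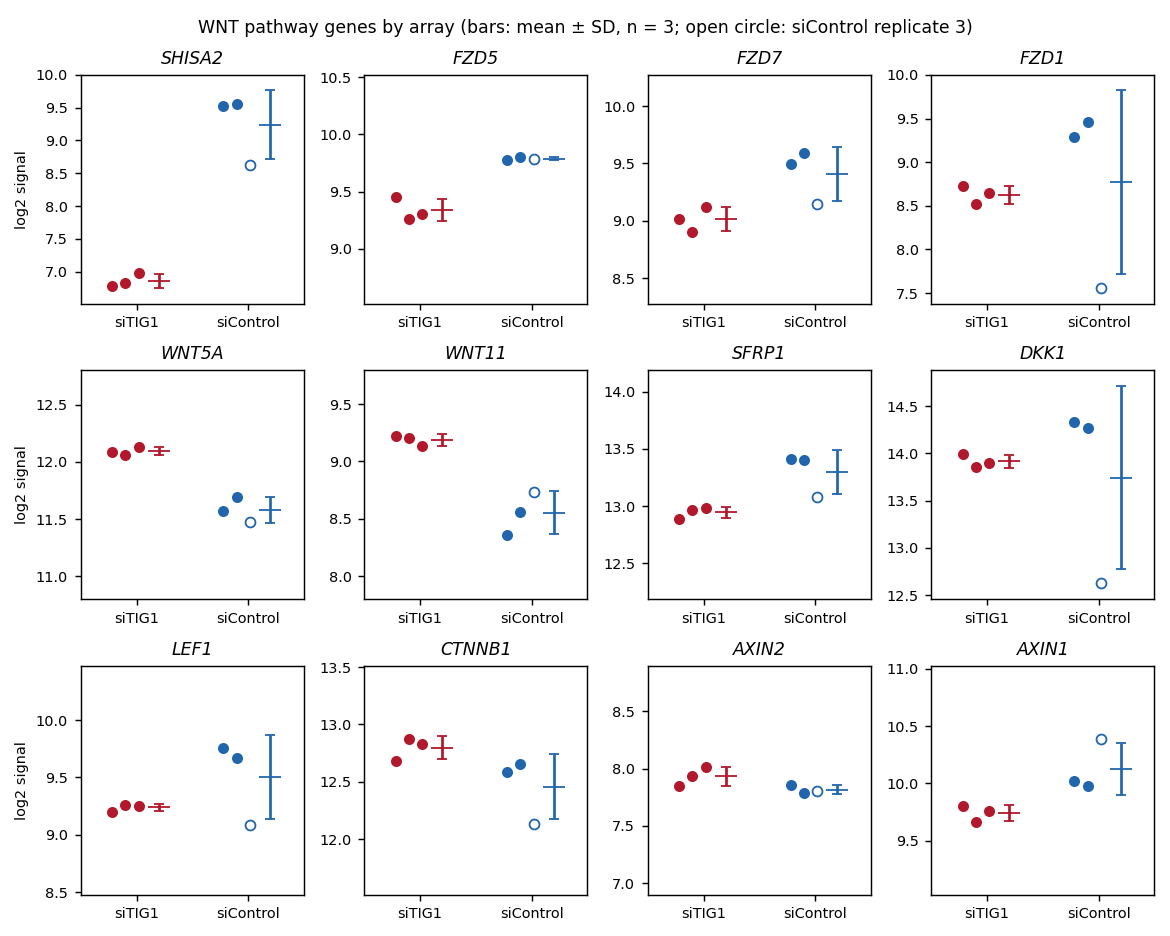
Log2 signal of 12 genes on each array, siTIG1 left and siControl right, with bars for mean ± SD (n = 3) and an open circle for siControl replicate 3. The groups do not overlap for SHISA2, FZD5, WNT5A and WNT11, which passed, nor for FZD7, SFRP1, CTNNB1 and AXIN1, which did not pass. FZD1 and DKK1 have a control far below the others.

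FZD5 was the only receptor to fall with all arrays, and none rose. Of the 11 receptor genes 9 had a negative difference, with a median of -0.14, against 8931 of all 19775 genes and a median of 0.02. All 3 siTIG1 arrays lay below all 3 controls for 5 of them (FZD3, FZD4, FZD5, FZD7 and LRP6) and above for none, against 15.4% and 16.6% of all genes. That made 1 call of 11, where 4.17% of all genes were called lower, and 3 receptors had an unadjusted p under 0.05, as did 4338 of the 19775 genes. The median was also negative after quantile normalization (-0.10) and after median centring (-0.16). It was only -0.04 without siControl replicate 1, -0.05 without siControl replicate 2 and -0.07 when a gene's probe sets were averaged. With 1 of the remaining arrays left out it lay between -0.16 and -0.12.

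FZD5, a Frizzled receptor able to take up WNT5A and canonical ligands, read 9.45, 9.26 and 9.31 on the siTIG1 arrays, against 9.77, 9.80 and 9.79 on the siControl arrays. The controls were tight and included siControl replicate 3. The difference was -0.45 ± 0.06 (SE), a fold of 1.37 (limma adjusted p = 0.014), and it was -0.45 without siControl replicate 3 too (limma adjusted p = 0.00079). Its second probe set read 7.64, 7.65 and 7.76 on the siTIG1 arrays and 7.77, 7.94 and 8.05 on the siControl arrays, which gave -0.24 ± 0.08 (SE) with the same sign but did not pass (limma adjusted p = 0.19). With 1 of the other arrays left out the limma adjusted p of FZD5 lay between 0.028 and 0.083, and 1 of those 5 fits kept the call.

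FZD7, a receptor of canonical WNT signalling common in basal breast cells, read 9.02, 8.91 and 9.12 on the siTIG1 arrays and 9.50, 9.59 and 9.14 on the siControl arrays. The groups did not overlap, though siControl replicate 3 lay just above the highest siTIG1 array. The difference of -0.40 ± 0.13 (SE) did not pass (limma adjusted p = 0.13). Without that control it was -0.53 (limma adjusted p = 0.00048), and the second FZD7 probe set then also passed, at -0.33 (limma adjusted p = 0.0052).

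FZD1 is the gene for which the choice of controls mattered most among the receptors. It read 8.72, 8.52 and 8.64 on the siTIG1 arrays and 9.29, 9.46 and 7.56 on the siControl arrays. The siTIG1 arrays thus lay between siControl replicate 3 and the other controls. With all arrays the difference was -0.14 ± 0.49 (SE, limma adjusted p = 0.90), and without siControl replicate 3 it was -0.75 ± 0.08 (SE, limma adjusted p = 1.0e-04). FZD1 averaged just within the range of the olfactory receptor genes on this probe set. The other FZD1 probe sets were dimmer still and gave 0.16 and 0.02 with all arrays, neither of which passed.

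FZD2 was at -0.09 with all arrays (limma adjusted p = 0.73) and at -0.22 without siControl replicate 3 (limma adjusted p = 0.036). The remaining 7 receptors differed by -0.24 (LRP6) to 0.08 (FZD6) with all arrays. On the probe set used for the gene, none of them passed with or without siControl replicate 3. Of the 4 FZD3 probe sets 2 had a negative difference with all arrays. The dimmest of them, within the range of the olfactory receptor genes, passed as lower without that control (-0.24, limma adjusted p = 0.029). LRP6, a co-receptor of canonical signalling, read 11.33, 11.44 and 11.48 on the siTIG1 arrays and 11.49, 11.60 and 11.86 on the siControl arrays, and all 3 of its probe sets had a negative difference. FZD6, known for planar polarity, read 11.66, 11.67 and 11.72 on the siTIG1 arrays and 11.66, 11.63 and 11.52 on the siControl arrays, and its 95% interval ran from -0.06 to 0.22. The dim FZD9 and FZD10 differed by 0.01 and -0.01.

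None of the 9 secreted inhibitors passed limma's threshold with all arrays, and 1 had an unadjusted p under 0.05, as did 4338 of the 19775 genes. The inhibitor with such a p was SFRP1, which encodes a Frizzled-related protein that binds WNT ligands. It read 12.89, 12.97 and 12.98 on the siTIG1 arrays, against 13.41, 13.40 and 13.08 on the siControl arrays, so the groups did not overlap and siControl replicate 3 was the lowest control. The difference was -0.35 ± 0.10 (SE, limma adjusted p = 0.10), and without that array it was -0.46 (limma adjusted p = 0.00023). Of the 4 SFRP1 probe sets 3 were lower and passed without siControl replicate 3 (-0.73, -0.46 and -0.34), while the dimmest gave 0.15 without that array and did not pass.

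DKK1, the secreted blocker of LRP5 and LRP6, read 14.00, 13.85 and 13.90 on the siTIG1 arrays and 14.34, 14.27 and 12.62 on the siControl arrays. As for FZD1, the siTIG1 arrays lay between siControl replicate 3 and the other controls. The difference was 0.17 ± 0.45 (SE, limma adjusted p = 0.87) with all arrays and -0.39 ± 0.06 (SE, limma adjusted p = 0.0011) without siControl replicate 3, so the sign turned. SFRP5 was at 0.17 with all arrays and passed without that array (0.23, limma adjusted p = 0.029), on signals within the range of the olfactory receptor genes. The other 6 inhibitors (SFRP2, SFRP4, DKK2, DKK3, DKK4 and WIF1) had signals between 5.17 and 7.53, also averaging within that range, and differed by -0.10 to 0.14.

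**Figure D4:**
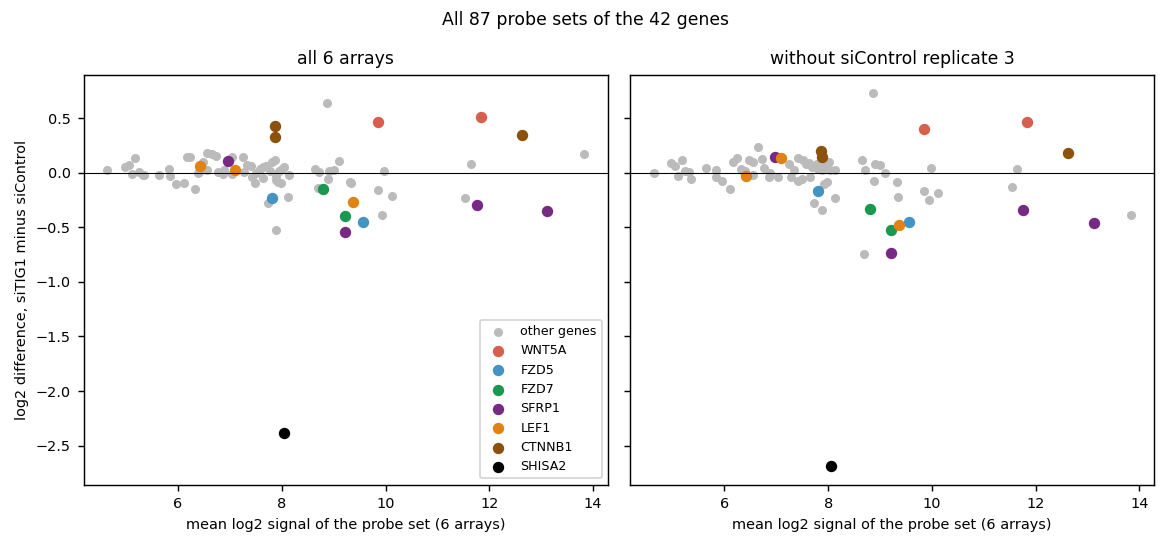
Log2 difference, siTIG1 minus siControl, of all 87 probe sets of the 42 genes against their mean log2 signal, with all 6 arrays on the left and without siControl replicate 3 on the right. The 2 WNT5A probe sets and the 3 CTNNB1 probe sets are above 0 in both panels, and the FZD5, FZD7 and brighter SFRP1 probe sets are below 0.

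The 4 intracellular genes gave no call with all arrays, and 1 (AXIN1) had an unadjusted p under 0.05, as did 4338 of the 19775 genes. CTNNB1, which encodes beta-catenin, read 12.68, 12.87 and 12.83 on the siTIG1 arrays and 12.59, 12.65 and 12.13 on the siControl arrays. The groups did not overlap, and the difference was 0.34 ± 0.15 (SE, limma adjusted p = 0.24). Its 3 probe sets agreed in sign, at 0.32 to 0.43. Without siControl replicate 3, its lowest array, the difference was 0.18 (limma adjusted p = 0.080).

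AXIN2, an axin scaffold whose transcript is a widely used readout of canonical WNT signalling, read 7.85, 7.93 and 8.02 on the siTIG1 arrays. It read 7.86, 7.78 and 7.81 on the siControl arrays. The groups overlapped, and the difference of 0.12 ± 0.06 (SE, limma adjusted p = 0.33) had a 95% interval of -0.03 to 0.26. All of these signals lay within the range of the olfactory receptor genes, so a change in AXIN2 may not have been detectable. AXIN1, the constitutive scaffold, read 9.80, 9.67 and 9.76 on the siTIG1 arrays and 10.02, 9.97 and 10.39 on the siControl arrays. Its groups did not overlap, and the difference was -0.38 ± 0.12 (SE, limma adjusted p = 0.12). Without siControl replicate 3 it was -0.25 (limma adjusted p = 0.0097).

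LEF1, a TCF/LEF family factor that is itself a reported target of beta-catenin, read 9.20, 9.26 and 9.25 on the siTIG1 arrays and 9.75, 9.67 and 9.08 on the siControl arrays. The siTIG1 arrays lay below siControl replicates 1 and 2 and above replicate 3. The difference was -0.27 ± 0.17 (SE, limma adjusted p = 0.45), and without replicate 3 it was -0.48 ± 0.05 (SE, limma adjusted p = 2.0e-04). The dimmer LEF1 probe sets gave 0.06 and 0.02 with all arrays, and neither passed.

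Leaving out siControl replicate 3 raised the calls among the 42 genes to 3 higher and 10 lower. Across all genes 12.3% were then called higher and 14.9% lower (27.2% in all), so 13 of 42 (31.0%) was again near the background. All 3 siTIG1 arrays then lay above both controls for 11 of the 42 genes and below both for 14, against 28.4% and 24.4% of all genes (52.8% in all). The genes added were SFRP5 as higher and FZD1, FZD2, FZD7, SFRP1, DKK1, LEF1, AXIN1 and WNT9A as lower. Receptors then held 4 falls of 11 (FZD1, FZD2, FZD5 and FZD7) and no rise. With any 1 of the other 5 arrays left out, at most 1 of the 42 genes was called higher and at most 2 lower.

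Probe sets of 1 gene gave a further view of the same arrays. Of the 25 genes with more than 1 probe set, 12 had all probe sets on the same side of 0 and 13 had mixed signs. Of the 87 probe sets 5 passed with all arrays, where 5.8% of all 41091 probe sets with 1 gene symbol did. These were both of WNT5A and those of WNT11, FZD5 and SHISA2.

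The rest of the pathway was read from lists by role, which held 91 further measured genes, and of these 3 rose, 6 fell and 82 did not pass. The calls made up 9.89% of the 91 genes, near the 7.32% of all genes (3.15% higher and 4.17% lower). None of the 91 passed when siTIG1 replicate 2, or siTIG1 replicate 3, was left out. Nothing passed among the 17 co-receptor and receptor turnover genes (4 with an unadjusted p under 0.05), the 11 further inhibitors (1 with such a p) and WLS, the carrier that brings WNT ligands to the surface (0.10, limma adjusted p = 0.56). Such an unadjusted p was found for 4338 of all 19775 genes. RYK, a co-receptor for WNT5A, was at -0.23 ± 0.05 (SE, limma adjusted p = 0.058), and it read 11.79, 11.75 and 11.80 on the siTIG1 arrays and 12.08, 12.01 and 11.95 on the siControl arrays. ROR1, another WNT5A receptor, read 9.56, 9.35 and 9.11 on the siTIG1 arrays and 8.74, 9.06 and 7.81 on the siControl arrays, a difference of 0.80 ± 0.32 (SE, limma adjusted p = 0.21). RYK and ROR1 are named after their values were seen, and without siControl replicate 3 they were at -0.26 (limma adjusted p = 0.0046) and 0.44 (limma adjusted p = 0.030).

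Feedback genes that canonical signalling induces gave no common direction. RNF43 and ZNRF3, ubiquitin ligases that remove Frizzled from the surface, were at -0.42 (limma adjusted p = 0.17) and -0.11 (limma adjusted p = 0.69). The stem cell receptor LGR5 was at 0.06, the intracellular inhibitor NKD1 at 0.05, the WNT deacylase NOTUM at 0.14 and the transcription factor SP5 at 0.10, and none of these 4 passed. LGR5 and SP5 averaged within the range of the olfactory receptor genes, so a change in either may not have been detectable. Without siControl replicate 3 RNF43 passed as lower (-0.24, limma adjusted p = 0.015) and NOTUM as higher (0.17, limma adjusted p = 0.044).

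The counts by list below stand beside 4.17% of all genes called lower and 3.15% called higher. Of 17 cytoplasmic genes 1 fell, 0 rose and 16 did not pass. It was CSNK1E, a casein kinase that acts with Dishevelled, at 9.70, 9.60 and 9.42 on the siTIG1 arrays against 10.57, 10.64 and 10.18 on the siControl arrays (-0.89 ± 0.14 SE, limma adjusted p = 0.017). The groups did not overlap, but the mean of its probe sets gave -0.50 (limma adjusted p = 0.042), and the call was lost when any single array other than siControl replicate 3 was left out. Of 12 nuclear genes 1 fell, the corepressor CTBP2, at 12.13, 12.10 and 12.06 on the siTIG1 arrays against 12.52, 12.48 and 12.62 on the siControl arrays (-0.44 ± 0.06 SE, limma adjusted p = 0.010). Of 11 planar polarity genes the atypical cadherin CELSR2 (-0.48 ± 0.06 SE, limma adjusted p = 0.0094) and the polarity scaffold SCRIB (-0.42 ± 0.08 SE, limma adjusted p = 0.039) fell, and 9 did not pass. SCRIB lost its call after quantile normalization (limma adjusted p = 0.057) and when any single array other than siControl replicate 3 was left out.

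Genes reported as targets of canonical signalling went both ways: of 15 measured, 3 rose, 2 fell and 10 did not pass, where 3.15% of all genes were called higher and 4.17% lower. The list was drawn up with MMP7, JUN and FOSL1 already known to differ in these data, so its count is not independent evidence. SOX4, a transcription factor, read 12.02, 12.12 and 12.27 on the siTIG1 arrays against 11.21, 11.36 and 11.00 on the siControl arrays (0.95 ± 0.11 SE, limma adjusted p = 0.0081), and the mean of its probe sets gave 0.52. TNFRSF19, a receptor of the TNF receptor family, read 8.45, 8.84 and 8.73 on the siTIG1 arrays against 7.21, 7.27 and 6.04 on the siControl arrays (1.83 ± 0.34 SE, limma adjusted p = 0.029). Both groups of TNFRSF19 averaged within the range of the olfactory receptor genes, and the mean of its probe sets gave 0.65. The call of TNFRSF19 was kept only without siControl replicate 3 when 1 array was left out (1.43). The third rise was the metalloproteinase MMP7 (2.80 ± 0.46 SE, limma adjusted p = 0.020). MMP7 read 12.69, 12.24 and 12.19 on the siTIG1 arrays against 9.93, 10.28 and 8.50 on the siControl arrays. Without siControl replicate 3, its lowest array, the difference was 2.26, and 2 of the 6 fits with 1 array left out kept the call.

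The falls among the targets were the AP-1 subunit FOSL1 (-1.99 ± 0.29 SE, limma adjusted p = 0.015) and CD44, a hyaluronan receptor. FOSL1 read 10.06, 9.77 and 9.77 on the siTIG1 arrays against 11.55, 11.46 and 12.56 on the siControl arrays. Without siControl replicate 3, its highest array, the difference was -1.64, and 3 of the 6 fits with 1 array left out kept the call. CD44 read 12.49, 12.63 and 12.64 on the siTIG1 arrays against 13.55, 13.54 and 13.17 on the siControl arrays (-0.84 ± 0.11 SE, limma adjusted p = 0.013). The mean over all CD44 probe sets gave a smaller difference that did not pass (-0.28, limma adjusted p = 0.23). Cyclin D1 (CCND1) read 11.63, 11.61 and 11.62 on the siTIG1 arrays and 12.27, 12.30 and 11.77 on the siControl arrays, and its difference of -0.50 ± 0.14 (SE) did not pass (limma adjusted p = 0.11). The fall of CCND1 passed once siControl replicate 3 was left out, at -0.67 (limma adjusted p = 1.9e-05). JUN was at 0.61 ± 0.20 (SE, limma adjusted p = 0.13) on its brightest probe set, whose name ends in x_at, and at 0.85 (limma adjusted p = 0.038) when such probe sets were used only as a last choice. The brightest JUN probe set gave 0.82 without siControl replicate 3 (limma adjusted p = 0.00037). With all arrays the mean over the JUN probe sets gave 0.46 and did not pass (limma adjusted p = 0.098). The remaining JUN probe sets gave only 0.20 and 0.19. MYC (-0.27, limma adjusted p = 0.70) and the SP5 value above did not pass.

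**Figure D5:**
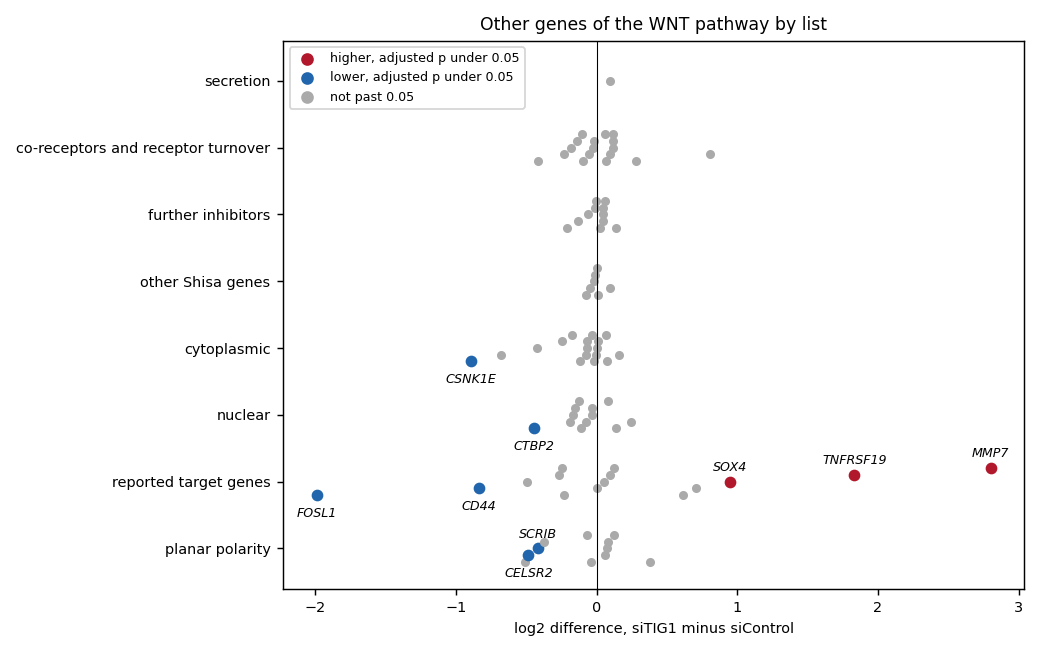
Log2 difference, siTIG1 minus siControl, of the other measured WNT pathway genes by list, with each gene a point and coloured points past an adjusted p of 0.05. The coloured points are MMP7, TNFRSF19 and SOX4 to the right and FOSL1, CSNK1E, CD44, CELSR2, CTBP2 and SCRIB to the left.

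Without siControl replicate 3, 14 of the 91 further pathway genes were called higher and 18 lower, 35.2% of them, against 27.2% of all genes. The largest differences among the added calls were those of JUN and CCND1 given above. DVL1, a Dishevelled protein, was at -0.68 with all arrays (limma adjusted p = 0.17) and at -0.41 without that control (limma adjusted p = 0.014). TLE1, a corepressor, was at 0.24 with all arrays and at 0.28 without that control (limma adjusted p = 0.0076). PRICKLE1, a planar polarity gene, was at -0.37 with all arrays and at -0.56 without that control (limma adjusted p = 0.00063). These genes were named after their values were seen.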

How the data were processed

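Labelled cRNA was hybridised to Affymetrix HG-U133 Plus arrays, as the labels' protocols state. The deposited table holds 54675 probe sets on 6 arrays. The authors' log2 values were used as deposited: the log base is not written and was taken as 2 from their range (4.28 to 15.59), and the array medians (7.87 to 7.90) show that they were already normalized between arrays. The submitters' processing notes name MAS5 and RMA without saying which of them gave this table. There is no detection call, so low signals are not shown to lie above background, and the number of arrays limits the precision. A change shared by most genes would not show.

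Symbols came from the platform annotation, updated by gene number with RefSeq (19734 of 19775 genes matched). limma 3.58.1 in R 4.3.3 (lmFit, eBayes, 2-sided, no block) compared the groups over all genes with Benjamini-Hochberg adjustment, and was tested on simulated data. The p-values of single probe sets were adjusted over all probe sets except the platform's own control probe sets. Dim genes were judged against the 95th percentile (8.78) of 82 olfactory receptor genes, a rough guide since probe sets differ in brightness. The labels do not say that replicate numbers mark shared cultures, so the block is an alternative only. Deviations of same-numbered arrays correlated at -0.08, 0.02 and -0.04, but with 3 arrays in each group this cannot settle whether they are paired. Genes given array by array were those past the threshold, those that passed without siControl replicate 3 with a difference of at least 0.4, and CTNNB1, AXIN2 and LEF1. Of the other pathway lists, the genes past the threshold and the feedback genes were named. Further genes were chosen after their values were seen. The members and lists were chosen with earlier results of these data known. PORCN and EPHB2 were not analysed here.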

Additional observations from a re-analysis of the deposited data

How the results depend on the processing

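Among the 42 genes the counts of 2 higher and 2 lower held when a gene's probe sets were averaged, with x_at probe sets as a last choice, with quantile normalization, with median centring and with limma's trend and robust settings. With dim genes left out 1 was lower, since SHISA2 averaged below the limit. With the replicate number as a block 0 were higher and 1 lower (SHISA2, adjusted p = 0.046), and the counts over all genes were 104 and 134, with 0 and 1 for the other pathway genes. The labels do not say whether the numbers pair the arrays. Under the block WNT5A, WNT11 and FZD5 kept the size of their differences but did not pass (limma adjusted p = 0.072, 0.079 and 0.073). With each array left out in turn the 42 genes gave 0 to 3 higher and 0 to 10 lower, all genes 102 to 2423 higher and 120 to 2952 lower, and the other pathway genes 0 to 14 higher and 0 to 18 lower. The upper ends come from leaving out siControl replicate 3. FZD1 turned to 0.013 when its probe sets were averaged and ran from -0.75 to 0.20 with 1 array left out, and DKK1 from -0.39 to 0.47. The cause was not tested.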
